A study of Mus musculus with 15 samples.

Results

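The FKBP immunophilins are prolyl isomerases, enzymes that turn the peptide bond before a proline, and FKBP12, the product of Fkbp1a, is the protein from which the destabilizing domain (DD) used in these cells was derived. The family described here was defined by gene name, and it was chosen with earlier results of these data known. It comprised the 10 genes Fkbp1a, Fkbp2, Fkbp3, Fkbp4, Fkbp5, Fkbp7, Fkbp8, Fkbp9, Fkbp10 and Fkbp14 among 20207 genes listed in each library. All 10 had at least 1 count in every library and were among the 10276 genes tested.

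The cells were NIH3T3 mouse embryonic fibroblasts, a sorted population that stably carried the DD fused to superfolder GFP and was grown with Shield-1 (S1), the ligand that keeps the DD folded. In the 5 control libraries S1 was present. In the others S1 had been withdrawn by a purified FKBP protein added to the medium as a sink, so that unfolded DD arose in the cells, for 45 min (3 libraries), 135 min (3 libraries) or 405 min (4 libraries). The transgene was present in all 4 groups, controls included, and the population was one sorted line, so no group without the DD was compared. Whether reads from the FKBP12-derived transgene were counted under Fkbp1a was not tested. RNA was measured as poly(A) RNA-seq, and no source used here says that libraries of a group came from separate cultures, so the p-values cover the spread between these libraries only.

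The members differ in where they work. Fkbp1a encodes the small cytosolic FKBP12, the target of rapamycin and FK506, which also sits on calcium release channels and type I TGF-beta receptors. Fkbp3 encodes a nuclear member. Fkbp4 and Fkbp5 encode FKBP52 and FKBP51, co-chaperones that bind HSP90 through tetratricopeptide repeats and act in opposite ways on steroid hormone receptors, and Fkbp8 encodes a membrane-anchored relative on the outer membrane of mitochondria. Fkbp2, Fkbp7, Fkbp9, Fkbp10 and Fkbp14 encode enzymes of the endoplasmic reticulum (ER), of which FKBP10 and FKBP14 are known for the folding of collagen. Fkbp5 is in addition a well known target gene of the glucocorticoid receptor.

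The 250 bases before the RefSeq start site are shown for Fkbp5 and Fkbp14, the members that passed the test at 405 min, and for Fkbp4, the HSP90-binding partner set beside Fkbp5 in the results. All 3 sequences are from GRCm38.p6 on the minus strand and read 5′ to 3′ toward the start. Capitals mark CCAAT or its reverse complement, and also CACGTG in Fkbp5 and GAANNTTC in Fkbp4. The Fkbp5 window is chr17:28486150-28486399, the Fkbp14 window is chr6:54593175-54593424 and the Fkbp4 window is chr6:128438657-128438906.
Fkbp5: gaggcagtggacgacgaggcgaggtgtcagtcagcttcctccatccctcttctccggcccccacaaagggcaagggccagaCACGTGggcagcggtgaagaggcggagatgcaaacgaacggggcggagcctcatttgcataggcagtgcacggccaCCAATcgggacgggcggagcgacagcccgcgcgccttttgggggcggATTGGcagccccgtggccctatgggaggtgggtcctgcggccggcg
Fkbp14: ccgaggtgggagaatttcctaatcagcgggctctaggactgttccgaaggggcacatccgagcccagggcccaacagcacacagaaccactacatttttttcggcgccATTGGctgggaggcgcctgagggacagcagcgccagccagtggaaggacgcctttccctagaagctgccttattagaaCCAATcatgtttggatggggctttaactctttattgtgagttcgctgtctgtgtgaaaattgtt
Fkbp4: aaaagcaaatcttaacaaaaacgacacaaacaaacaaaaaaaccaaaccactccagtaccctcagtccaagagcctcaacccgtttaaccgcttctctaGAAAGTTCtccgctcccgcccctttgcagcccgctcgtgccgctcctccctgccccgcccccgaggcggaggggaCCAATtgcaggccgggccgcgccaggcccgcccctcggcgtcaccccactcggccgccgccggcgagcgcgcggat

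The paired heat shock half-sites GAANNTTC stood 151 bases before the Fkbp4 start, and 6.69% of the 32851 windows of this length in the RefSeq table hold these letters. In Fkbp5 the E-box letters CACGTG stood 169 bases before the start (6.02% of windows) and CCAAT, read on either strand, 93 and 46 bases before it (33.8% of windows). In Fkbp14 the CCAAT letters stood 142 and 64 bases before the start; a second, more distant Fkbp14 window in the table held none of the motifs searched. TTCNNGAA (7.17% of windows) was found 197 bases before the Fkbp7 start, and the glucocorticoid half-site pair ACANNNTGT (5.84%), searched on both strands, 151 bases before it, but in no other window of a member. The joined ER stress response element, CCAAT followed after 9 bases by CCACG and held by 0.113% of windows, was in no window of a member. Fkbp10 had no window in the RefSeq table, so it was not searched for any of the motifs. These matches are letters in a window and say nothing of binding in these cells.

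Gene level depth ranged from 6652539 counts in control replicate 3 to 30258404 in DD 45 min replicate 1. The fibroblast identity of the cells was borne out by 9 of 9 fibroblast markers, with Col1a1 between 1640 and 4040 CPM (counts scaled to a fixed library total). Of 14 listed markers of epithelium, blood, endothelium, muscle, fat and neurons, 13 had at least 1 library at 0, among them the fat marker Adipoq at 0 in all 15, and the neuronal Tubb3 had 0.514 to 5.56 CPM. Summed over each list, the fibroblast markers ran from 15661 to 20953 CPM in the controls and from 12732 to 18832 at 405 min, where 4 of 9 were called lower and none higher, and the other markers from 2.92 to 9.62 and from 8.63 to 12.5 CPM. Of all genes tested, 9.99% were called higher and 13.4% lower at 405 min. The part of these markers in the FKBP values was not tested. Libraries differed in how strongly their counts depended on the share of G and C bases (GC) in a gene's exons. The slope of log2 CPM per 10 GC points ran from −1.42 in control replicate 3 to 0.028 in DD 405 min replicate 1. At its widest gap (0.284, next widest 0.281) 5 libraries with the highest slopes were set apart as library set 2: control replicate 2, DD 45 min replicate 3 and DD 405 min replicates 1, 2 and 4. The remaining 10, among them all 3 DD 135 min libraries, made up library set 1. The property is graded, and DD 45 min replicate 1 was the library of set 1 nearest to set 2. The study's methods describe more than one way of preparing libraries, and which library was made which way is not given in the sources used here.

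This division matters for the FKBP family because 3 of the 4 DD 405 min libraries and only 1 of the 5 controls were in set 2. Each member is therefore given by library and by set. Within set 1 the GC slope itself still separated the controls from the other groups. It was −1.42 to −0.989 in the controls, −0.936 to −0.670 at 45 min, −0.918 to −0.813 at 135 min and −0.897 at 405 min. Its part in differences between groups within set 1 was not tested. Values below are CPM after TMM scaling unless named otherwise.

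**Figure D1:**
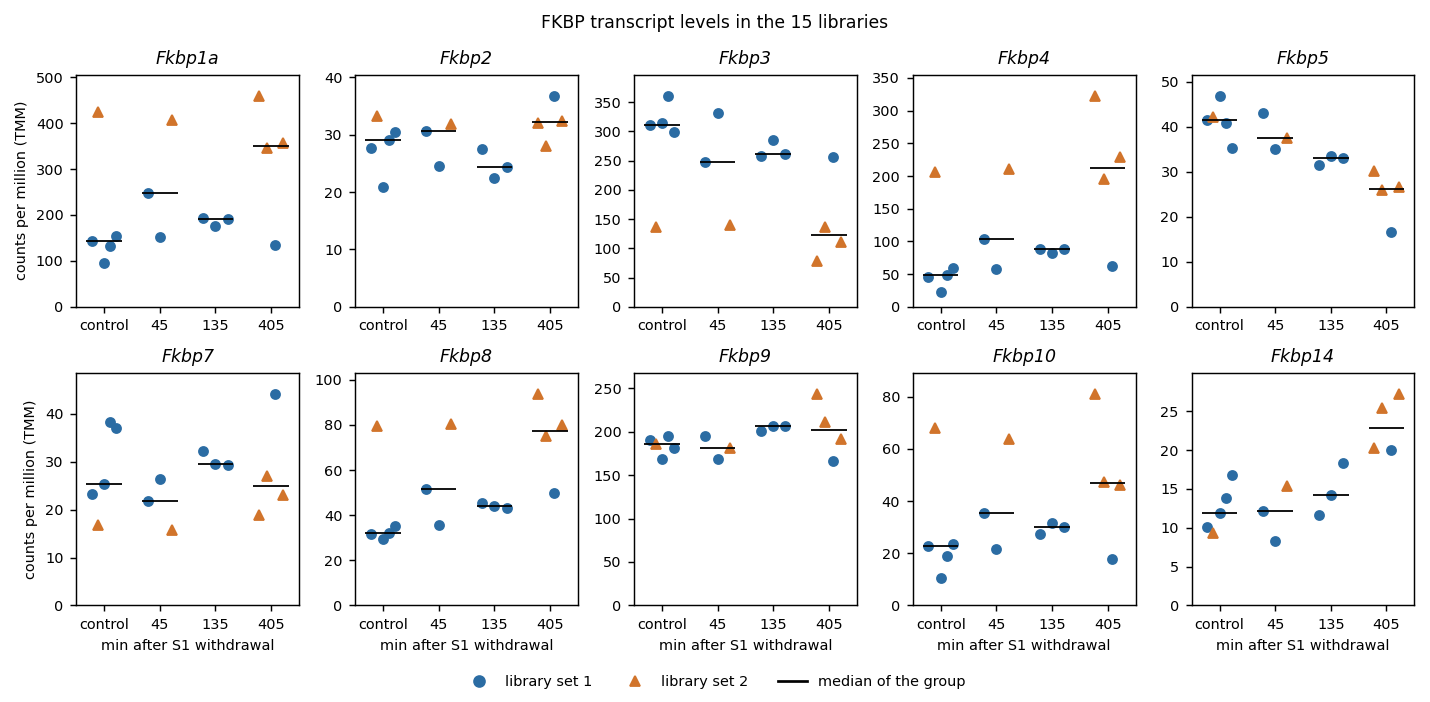
CPM (vertical axis, from 0) of the 10 FKBP members in the 15 libraries by group (horizontal axis, min after S1 withdrawal); circles are libraries of set 1, triangles those of set 2, and bars are group medians. Fkbp1a, Fkbp3, Fkbp4, Fkbp8 and Fkbp10 split by set with no overlap, whereas the 4 DD 405 min libraries lie below all 5 controls for Fkbp5 and above them for Fkbp14, whichever set they belong to.

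By median level per length, Fkbp3 was the most abundant member in the control cells and Fkbp14 the least. The deposited RPKM (reads scaled by transcript length and by the mapped reads of the library) had control medians of 151 for Fkbp3, 40.4 for Fkbp1a, 29.8 for Fkbp9, 21.0 for Fkbp2, 11.9 for Fkbp7, 10.2 for Fkbp4, 8.72 for Fkbp8, 5.43 for Fkbp5, 4.04 for Fkbp10 and 1.90 for Fkbp14. By its control median Fkbp3 lay above 98.7% of all genes listed and Fkbp14 above 62.9%. In that order Fkbp1a exceeded Fkbp9, Fkbp9 exceeded Fkbp2, Fkbp2 exceeded Fkbp7 and Fkbp8 exceeded Fkbp5 in 5 of 5 control libraries. The other neighbours (Fkbp3 and Fkbp1a, Fkbp7 and Fkbp4, Fkbp4 and Fkbp8, Fkbp5 and Fkbp10, Fkbp10 and Fkbp14) kept their order in 4 of 5. Differences in level between members were not tested.

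Fkbp3 and Fkbp1a changed places with the library set. The RPKM of Fkbp1a was 0.174 to 0.580 times that of Fkbp3 in the 10 libraries of set 1 and 1.46 to 3.36 times that of Fkbp3 in the 5 of set 2, in every group that had libraries of both sets. Within set 1 the ratio was 0.174 to 0.297 in the controls, 0.355 to 0.432 at 135 min and 0.303 at 405 min, so the later libraries lay above every control, while in set 2 it was 1.80 in the control and 3.36, 1.46 and 1.85 at 405 min. The GC slope separated the same groups within set 1. In DD 405 min replicate 1 Fkbp4 also stood above Fkbp3.

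Fkbp5 was the only member called lower at 405 min in the fit with groups only. Its CPM was 41.4, 42.2, 46.9, 40.8 and 35.3 in the controls and 43.1, 35.0 and 37.5 at 45 min. At 135 min it was 31.6, 33.4 and 33.1, and at 405 min 30.2, 25.9, 16.7 and 26.6. All 3 libraries of 135 min and all 4 of 405 min lay below the lowest control, and those of 45 min overlapped the controls. In bulk RNA, less RNA per cell and fewer cells with the RNA cannot be told apart. The means were 41.3 ± 4.14 (SD, n = 5) in the controls, 38.5 ± 4.15 (n = 3) at 45 min, 32.7 ± 0.964 (n = 3) at 135 min and 24.8 ± 5.75 (n = 4) at 405 min.

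In edgeR's quasi-likelihood test across all genes, with Benjamini-Hochberg adjustment, Fkbp5 was 0.602-fold of control at 405 min (log2 fold change −0.73, SE 0.17, adjusted p = 0.00908). At 135 min the log2 fold change was −0.34 (SE 0.18, adjusted p = 0.501) and at 45 min −0.10 (SE 0.18, adjusted p = 0.807), so neither passed. The difference between 405 and 135 min did not pass either (−0.40, SE 0.19, adjusted p = 0.186). With the library set in the model the value at 405 min was −0.87 (SE 0.18, adjusted p = 0.00393). Within set 1, which has DD 405 min replicate 3 alone and takes its spread from the other groups, it was −1.30 (adjusted p = 0.0287), and within set 2, which has control replicate 2 alone, −0.60 (adjusted p = 0.153). The call held when any 1 of the 15 libraries was left out (adjusted p 0.00516 to 0.0270) and was lost when the 6 libraries of the other groups were left out of the fit (adjusted p = 0.0535). Fkbp5 lies on the minus strand of chr17:28536040-28623057 (mm9) and overlaps an annotated 7SK gene on the opposite strand; whether the counting used strand is not stated.

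Fkbp14 was the only member called higher at 405 min in the fit with groups only. It had 10.1, 9.32, 11.9, 13.8 and 16.8 CPM in the controls, 12.2, 8.25 and 15.4 at 45 min, and 11.6, 14.2 and 18.3 at 135 min. At 405 min it had 20.3, 25.4, 20.0 and 27.2 CPM. All 4 libraries of 405 min exceeded the highest control, while those of 45 and 135 min overlapped the controls. The means were 12.4 ± 3.01 (SD, n = 5) in the controls, 12.0 ± 3.58 (n = 3) at 45 min, 14.7 ± 3.38 (n = 3) at 135 min and 23.2 ± 3.63 (n = 4) at 405 min.

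The fitted level of Fkbp14 was 1.88-fold of control at 405 min (log2 0.91, SE 0.24, adjusted p = 0.0162, edgeR). The log2 difference between 405 and 135 min was 0.66 (SE 0.27, adjusted p = 0.142) and did not pass. With the library set as a term the change at 405 min was nearly as large, 0.83 (SE 0.27), but the adjusted p was 0.0527, and with the GC slope of each library as a term, added after the data were seen, it was 0.88 (adjusted p = 0.0429). Within set 1 the value was 0.59 (adjusted p = 0.452, 1 library at 405 min) and within set 2 1.40 (adjusted p = 0.0154, 1 control). Without DD 405 min replicate 2 the adjusted p was 0.0509 and without replicate 4 it was 0.0613. Fkbp14 is on the minus strand of chr6:54527599-54543122 (mm9) and overlaps no other annotated gene.

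Of the 10 members 1 was therefore higher and 1 lower at 405 min, against 9.99% of all 10276 genes tested called higher and 13.4% called lower, so the share of members called was close to that of genes in general. The comparisons with control share the 5 control libraries. Without control replicate 2, the 1 control in set 2, 5 members were higher and 2 lower, with Fkbp1a, Fkbp4, Fkbp8, Fkbp10 and Fkbp3 added to the calls, and in that fit 24.5% of all genes were higher and 23.9% lower. The median log2 change of the 10 was 0.46 against −0.001 for all genes, and 0.10 against −0.01 with the library set as a term. At 45 min no member and no gene passed (0% higher and 0% lower by edgeR; 365 genes had an unadjusted p under 0.05, and DESeq2 called 6 genes). At 135 min no member passed, with 0.564% of genes higher and 0.895% lower. Between 405 and 135 min no member passed, with 2.24% of genes higher and 2.82% lower.

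**Figure D2:**
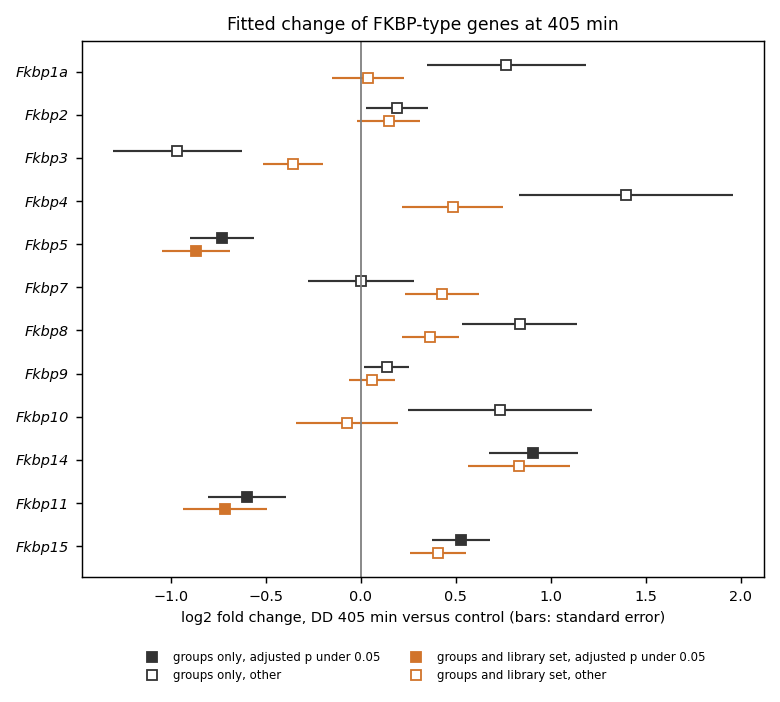
Log2 fold change of 12 FKBP-type genes at 405 min versus control (horizontal axis; bars are standard errors), fitted with groups only (dark) or with groups and library set (orange); filled squares have an adjusted p under 0.05. Fkbp5 stays at −0.73 and −0.87 and Fkbp14 at 0.91 and 0.83, while Fkbp1a, Fkbp3, Fkbp4, Fkbp8 and Fkbp10 come closer to 0 once the set is in the model.

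The cytosolic Fkbp1a, whose product gave rise to the DD, followed the library set. Its CPM in the controls was 144, 425, 95.2, 133 and 155, at 45 min 249, 151 and 408, at 135 min 193, 177 and 192, and at 405 min 460, 345, 135 and 357. The 5 libraries of set 2 spanned 345 to 460 and the 10 of set 1 spanned 95.2 to 249. The log2 change at 405 min was 0.77 (SE 0.42, adjusted p = 0.174), and with the set as a term it was 0.04 (SE 0.19, adjusted p = 0.923). The set difference was 1.44 on the log2 scale. At 135 min all 3 libraries (177 to 193) lay above the 4 controls of set 1 (95.2 to 155), and the change was −0.03 (SE 0.46, adjusted p = 0.989) without the set, 0.45 (SE 0.19, adjusted p = 0.133) with it and 0.02 (SE 0.099, adjusted p = 0.931) with the GC slope as a term, none of which passed.

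The nuclear member Fkbp3 went the other way. It had 311, 136, 314, 361 and 299 CPM in the controls, 247, 332 and 140 at 45 min, 257, 286 and 262 at 135 min, and 78.9, 136, 256 and 111 at 405 min. Set 2 spanned 78.9 to 140 and set 1 spanned 247 to 361. In set 1, where the GC slope separates the same groups, Fkbp3 lay below all 4 controls in the libraries of 135 and 405 min. Its log2 change at 405 min was −0.97 (SE 0.34, adjusted p = 0.0524) and −0.36 (SE 0.16, adjusted p = 0.150) with the set as a term. Fkbp3 overlaps Prpf39 on the opposite strand.

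Among the HSP90-binding members, Fkbp4 had the widest range. It had 45.9, 206, 23.2, 48.1 and 58.6 CPM in the controls, 103, 57.2 and 211 at 45 min, 87.8, 82.7 and 87.9 at 135 min, and 323, 195, 62.1 and 229 at 405 min. The set 2 libraries lay between 195 and 323 and the set 1 libraries between 23.2 and 103. Across all libraries the change at 405 min was 1.40 (SE 0.56, adjusted p = 0.0804). At 135 min, where all 3 libraries belong to set 1, they lay above all 4 controls of that set (23.2 to 58.6). There the log2 change was 0.17 (SE 0.61, adjusted p = 0.950) without the set and 0.89 (SE 0.26, adjusted p = 0.0476) with it, the only member called at that time in that model, in which 3.06% of genes were higher and 4.88% lower. Within set 1 alone it was 0.96 (SE 0.28, adjusted p = 0.0658) and with the GC slope as a term 0.35 (SE 0.12, adjusted p = 0.0830), so this call rested on the choice of model. At 405 min the same model gave 0.48 (SE 0.27, adjusted p = 0.254).

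The membrane-anchored Fkbp8 had 31.7, 79.5, 29.6, 32.3 and 35.3 CPM in the controls, 51.5, 35.5 and 80.6 at 45 min, 45.3, 43.9 and 43.3 at 135 min, and 93.6, 75.0, 49.9 and 80.0 at 405 min. Within set 1, where the GC slope separates the same groups, the 3 libraries of 135 min and the 1 of 405 min exceeded all 4 controls. In set 2, 1 of the 3 libraries of 405 min, replicate 2, lay below control replicate 2. The change at 405 min was 0.84 (SE 0.30, adjusted p = 0.0578) and 0.37 (SE 0.15, adjusted p = 0.124) with the set as a term. Fkbp8 overlaps 2810422J05Rik on the opposite strand.

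A ratio taken within a library compares FKBP52 and FKBP51 transcripts without scaling between libraries, and was chosen after the values were seen. The RPKM of Fkbp4 over that of Fkbp5 was 1.79, 0.800, 1.91 and 2.69 in the 4 controls of set 1, 3.87 and 2.64 in the 2 libraries of 45 min, 4.49, 4.01 and 4.29 at 135 min and 6.01 at 405 min. In set 2 it was 7.90 in the control, 9.11 at 45 min, and 17.3, 12.2 and 13.9 at 405 min. In each set every library of 135 or 405 min stood above every control of the same set. Fkbp4 has more GC in its exons than Fkbp5 (56.0% against 50.7%), and within set 1 the GC slope also separated these groups, with −1.42 to −0.989 in the controls, −0.918 to −0.813 at 135 min and −0.897 at 405 min. In set 2 the slope was −0.161 in the control and 0.028, −0.387 and −0.206 at 405 min. The part of the slope in the ratio was not tested. The set difference was as wide as that over time, since the single control of set 2 exceeded all libraries of set 1.

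**Figure D3:**
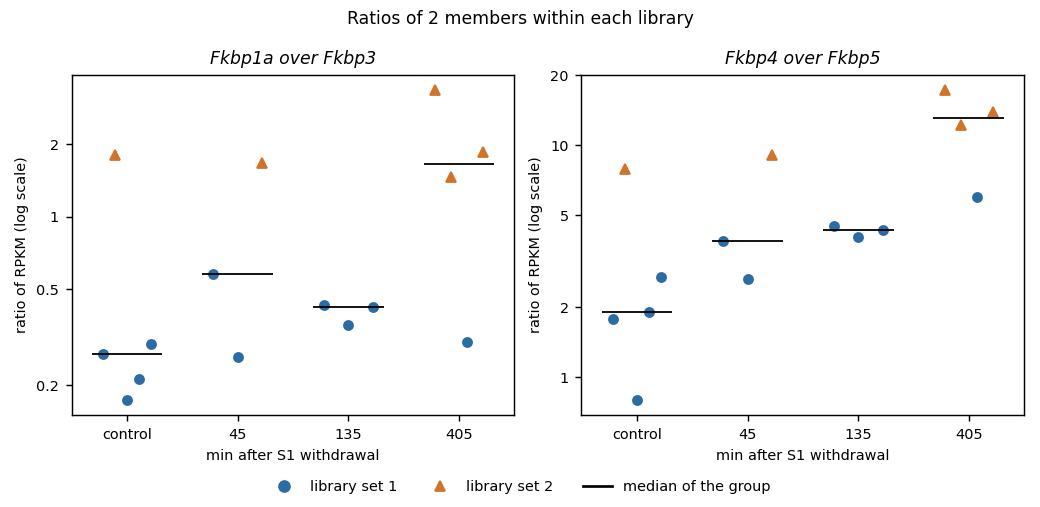
Ratio of RPKM of Fkbp1a over Fkbp3 (left) and of Fkbp4 over Fkbp5 (right) in each library, on log vertical axes, by group (horizontal axis, min after S1 withdrawal); circles are set 1, triangles set 2 and bars group medians. On the left the sets separate (at most 0.580 against at least 1.46), and within set 1 the libraries of 135 and 405 min lie above the controls, whereas in set 2 those of 405 min lie on both sides of the control. On the right the sets separate too, and within each set the libraries of 135 and 405 min lie above the controls.

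Of the ER members, Fkbp2, Fkbp7 and Fkbp9 showed no change that passed the test. Fkbp9, the most abundant of them per length, also had the lowest ratio of highest to lowest library of all members, 1.46, with 166 to 243 CPM over the 15 libraries. Its log2 change at 405 min was 0.14 (SE 0.12, adjusted p = 0.382). Fkbp2, a small ER enzyme, ranged from 20.9 to 36.8 CPM and changed by 0.19 (SE 0.16, adjusted p = 0.379). Fkbp7 ranged from 15.8 to 44.1 CPM, and its log2 change was 0.001 (SE 0.28, adjusted p = 0.998) and 0.43 (SE 0.20, adjusted p = 0.163) with the set as a term.

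Fkbp10, the collagen-binding FKBP65, had 22.9, 68.0, 10.5, 18.8 and 23.6 CPM in the controls and 80.9, 47.4, 17.7 and 46.3 at 405 min. At 45 min it had 35.3, 21.6 and 63.7, and at 135 min 27.3, 31.6 and 29.9. Set 2 spanned 46.3 to 80.9 and set 1 10.5 to 35.3. In set 1, where the GC slope separates the same groups, the 3 libraries of 135 min lay above all 4 controls. The change at 405 min was 0.73 (SE 0.49, adjusted p = 0.256), and with the set as a term it turned to −0.07 (SE 0.27, adjusted p = 0.889). The pair of ER members tied to collagen thus gave different results, with Fkbp14 past the test at 405 min and Fkbp10 not; the difference between them was not tested. Fkbp10 overlaps Nt5c3l on the opposite strand.

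The sets were defined by the slope of log2 CPM on exonic GC, so a set difference that rises with GC over genes is built into their definition, and the members are set beside their base composition only to show where each falls. Fkbp4, Fkbp8, Fkbp10 and Fkbp1a, higher in set 2 by 1.91, 0.99, 1.59 and 1.44 on the log2 scale, have 56.0%, 56.2%, 57.2% and 51.6% GC in their exons. Fkbp3 and Fkbp7, lower in set 2 by −1.18 and −0.82, have 41.8% and 40.4%. Fkbp14, Fkbp5 and Fkbp9, with differences of 0.12 to 0.22, have 47.1%, 50.7% and 50.7%. Fkbp2 departs from that built-in order, with 56.5% GC and a difference of 0.08, and is the member with the shortest exonic length, 642 bases. Fkbp1a departs from it as well, with 1.44 at 51.6% GC, against 0.22 for Fkbp5 and 0.13 for Fkbp9 at 50.7%. The sets also differ in their groups, and the differences are given without a test.

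**Figure D4:**
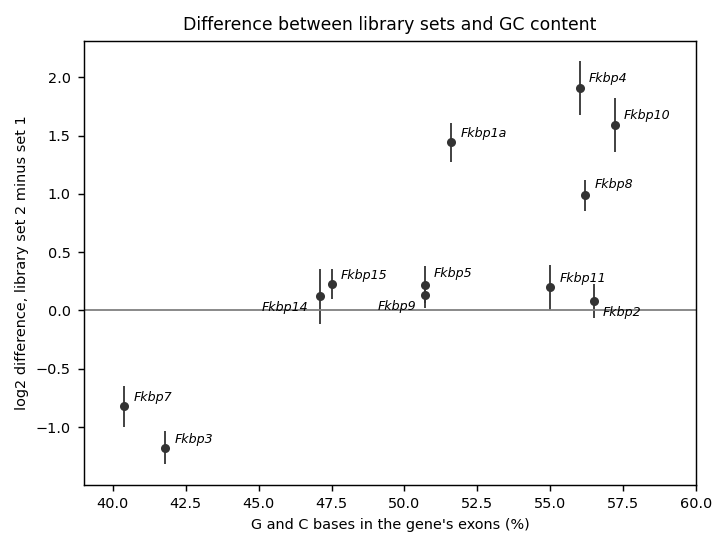
Log2 difference of library set 2 minus set 1 (vertical axis; bars are standard errors), in the fit with groups and set, against the percentage of G and C in the exons (horizontal axis) for the 10 members and Fkbp11 and Fkbp15. A rise with GC is built into how the sets were defined: Fkbp3 (41.8%) and Fkbp7 (40.4%) are negative, Fkbp1a, Fkbp4, Fkbp8 and Fkbp10 are at 0.99 or above, and Fkbp2 and Fkbp11 stay near 0 at 56.5% and 55.0%.

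Other genes with an FKBP-type domain gave 2 calls at 405 min among the 3 tested of 6 listed, 1 higher and 1 lower. The shares over all genes were 9.99% higher and 13.4% lower. Fkbp15, which encodes a protein tied to endosomes and actin, had 62.4, 74.0, 46.2, 69.5 and 72.9 CPM in the controls and 98.8, 96.7, 89.1 and 90.8 at 405 min, with no overlap, and rose by 0.53 (SE 0.15, adjusted p = 0.0247, edgeR). Fkbp11, which encodes an ER member of secretory cells, had 32.6, 32.1, 27.4, 31.1 and 19.1 CPM in the controls and 17.5, 23.3, 14.1 and 20.0 at 405 min, and its change was −0.60 (SE 0.21, adjusted p = 0.0474). With the set as a term Fkbp15 had 0.41 (adjusted p = 0.0814) and Fkbp11 −0.71 (adjusted p = 0.0439). Leaving out 1 library kept the call of Fkbp15 in 11 of 15 fits and of Fkbp11 in 2. Fkbp15 was also higher at 405 than at 135 min (0.67, SE 0.17, adjusted p = 0.0412), but all 135 min libraries and only 1 of the 4 of 405 min are in set 1, and with the set as a term the difference was 0.51 (SE 0.17, adjusted p = 0.131) and did not pass. Fkbp1b, the muscle and heart relative of Fkbp1a, had 0.522 to 2.96 CPM and was not called, and Fkbp6, Fkbpl and Aipl1 had libraries at 0 and were not tested under the filter used. Fkbpl was at 0 in control replicate 3 alone and had 1.53, 3.71, 0.680 and 1.36 CPM in the other controls and 9.54, 5.87, 3.28 and 5.99 at 405 min. Its log2 change at 405 min was 1.99 (adjusted p = 0.0422) with the filterByExpr filter and 1.73 (adjusted p = 0.0280) without control replicate 3, and it did not pass with no filter (adjusted p = 0.0509), so the call depended on the filter.

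Among 18 tested genes listed as other prolyl isomerases (cyclophilins and parvulins), 1 was higher and 2 lower at 405 min. The median log2 change was −0.23, and over all genes 9.99% were higher and 13.4% lower. Ppil5 (−1.55, edgeR adjusted p = 0.0282) and Ppic, a secretory pathway cyclophilin (−0.58, adjusted p = 0.0103), were lower. Ppil5 is on the list by its symbol alone and was not checked for a prolyl isomerase domain. Ranbp2, a nuclear pore protein with a cyclophilin domain, was higher (0.52, adjusted p = 0.0403). With the set as a term Ppic and Ranbp2 remained called and Ppil5 did not.

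Fkbp4 and Fkbp5 act with HSP90. The HSP90 list held 15 genes, of HSP90 and its co-chaperones together with Hsf1 and Nr3c1, which encode neither. Of these, 5 were higher and 1 lower at 405 min (median 0.63), against 9.99% and 13.4% of all genes. Hsf1 was 1 of the 5 higher and Nr3c1 the 1 lower. Ahsa1, the activator of the HSP90 ATPase, rose by 1.52 (adjusted p = 0.0161), Hsf1, the heat shock transcription factor, by 1.46 (adjusted p = 0.0374), and St13, which links HSP70 to HSP90, by 0.76 (adjusted p = 0.00520). The cytosolic Hsp90ab1 rose by 0.71 (adjusted p = 0.00181). The gene that was lower was Nr3c1, the glucocorticoid receptor itself (−0.59, SE 0.13, adjusted p = 0.00600). With the set as a term, in which 6.17% of all genes were higher and 6.87% lower, 4 of the 15 were higher and 1 lower. Hsp90aa1, which was not called with groups only, was 1 of these 4 (0.87, SE 0.14, edgeR adjusted p = 0.000552). Hsf1 had an adjusted p of 0.0879 in that model.

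Of 9 tested glucocorticoid receptor targets other than Fkbp5, 3 were lower and none higher at 135 min (median −1.07). At 405 min 2 were lower and none higher (median −0.37). Over all genes 0.895% were lower at 135 min and 13.4% at 405 min. Cebpd, a transcription factor, was at −3.06 (adjusted p = 0.000111) at 135 min and −2.33 (adjusted p = 0.000111) at 405 min. Sgk1, a kinase, was at −1.14 (adjusted p = 0.0280) and −0.94 (adjusted p = 0.00844), and Errfi1, an inhibitor of EGF receptor signalling, at −1.28 (adjusted p = 0.0271) at 135 min. Tsc22d3, another classical target, did not pass (−0.69 at 405 min, adjusted p = 0.166). These genes also respond to growth factors and stress, and no hormone was varied. With the set as a term 5 of the 9 were lower at 135 min and 4 at 405 min, against 4.88% and 6.87% of all genes.

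A list of genes tied to FKBP12, for TOR complexes, calcineurin and type I TGF-beta family receptors, was mixed. At 405 min 2 of 12 were higher and 4 lower (median −0.21), against 9.99% and 13.4% of all genes. Not all of these products bind FKBP12 itself, and binding was not measured. Rptor, a subunit of TOR complex 1, was higher (1.55, adjusted p = 0.00462), and Ppp3cc and Ppp3ca, catalytic subunits of calcineurin, were lower (−1.24, adjusted p = 0.00912, and −0.63, adjusted p = 0.0149), as was the receptor gene Tgfbr1 (−0.81, adjusted p = 0.0193). Of these 4, all but Tgfbr1 remained called with the set as a term.

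Fkbp14 shares its compartment with the ER chaperones, of which 7 of 13 were higher and none lower at 405 min (median 0.44). Of all genes, 9.99% were higher and 13.4% lower. Calr, a lectin chaperone, had 1.32 (adjusted p = 0.0343), Hyou1, an HSP70 relative, 1.12 (adjusted p = 0.0159), Creld2 0.72 (adjusted p = 0.0159) and the disulfide isomerase gene Pdia4 0.56 (adjusted p = 0.00860). Hspa5, which encodes BiP, had 0.29 (adjusted p = 0.213) and was not called with the set as a term. With the GC slope as a term it had 0.57 (SE 0.17, edgeR adjusted p = 0.0323), so its call depended on the model. With the set as a term 6 of the 13 were higher, against 6.17% of all genes, and Calr was at 0.62. Genes of collagen and its folding in the ER went in both directions, with 2 of 15 higher and 4 lower (median 0.13). Lepre1, a prolyl 3-hydroxylase, was higher (1.36, adjusted p = 0.00400), while P4ha3 (−1.62, adjusted p = 0.00567) and P4ha1 (−0.74, adjusted p = 0.00457), which encode prolyl 4-hydroxylase subunits, and the collagen gene Col3a1 (−0.87, adjusted p = 0.00503) were lower. Within a single library set, where 1 arm has 1 library, the HSP90 list had 0 calls in set 1 and 1 in set 2 at 405 min, and the ER chaperones likewise 0 and 1. Over all genes the calls there were 1.18% higher and 0.934% lower in set 1 and 2.36% and 2.07% in set 2. The median log2 changes were 0.48 in set 1 and 0.42 in set 2 for the HSP90 list, and 0.42 and 0.49 for the ER chaperones.

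The genes whose log2 CPM followed Fkbp5 most closely over the 15 libraries were Kctd15 (Pearson r = 0.932), Dbc1 (0.926) and Rassf2 (0.911). For Fkbp14 they were Hspa13 (r = 0.903), an ER-associated HSP70 relative, Dnaja4 (0.899), an HSP40 co-chaperone, and 1110012L19Rik (0.862). These correlations describe libraries that share groups and sets, and carry no test.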

How the data were processed

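Poly(A) RNA of 15 NIH3T3 libraries was sequenced on an Illumina instrument and aligned to mm9 with RefSeq genes, per the labels and the study's methods; the aligner is not given in the sources used here. The deposited estimated counts per gene are the authors' values, with 8.7 to 15.6% fractional in a library and large values kept to 4 significant digits; they were rounded to whole numbers, where raw counts had been assumed. The deposited RPKM values were computed by the authors with their own denominators. They were used to compare genes within a library and, as control medians, to order the members and place them among all genes. The Z-score and RMS-normalized columns were not used.

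Genes with at least 1 count in every library (10276) were tested with edgeR 4.0.16 (R 4.3.3), quasi-likelihood, TMM, group as the only term over all 15 libraries, Benjamini-Hochberg adjusted p under 0.05; the script was tested on simulated data. Exonic GC was available for 95.8% of tested genes. Alternatives used DESeq2 1.42.0, other filters and scalings, fewer groups, a replicate block, the library set or GC slope as a term, a GC offset, single sets and leaving out each library. Exonic features came from GENCODE on mm9. BLAST 2.17.0 found no copy of a member's transcript elsewhere in the genome over 200 bases at 95% identity.

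Depth was 6652539 to 30258404 counts; it limits the precision of low genes such as Fkbp14. The members and gene lists were chosen with earlier results of these data known. All 10 members, the other FKBP-type genes and, per list, up to 4 called genes with the largest change at 405 min (or 135 min) were named by rule. Nr3c1, Hsp90aa1, Tsc22d3 and Hspa5 were named after their values were seen. Some genes of the lists are not reported here and were left out of the counts.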

Additional observations from a re-analysis of the deposited data

Results flagged for a closer look

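Control replicate 2, the 1 control of library set 2, stood apart from the other 4 controls for 2 members by Dixon's ratio on log2 CPM. Fkbp3 had 136.0 CPM there (ratio 0.807) and Fkbp8 79.5 CPM (ratio 0.822). Chance gives such a value in about 1 of 20 groups screened, and 27 groups were screened. Fkbp15, an FKBP-type gene outside the 10 members, changed more at 405 min than at 135 min, by 0.674 on the log2 scale (edgeR, adjusted p = 0.0412). With the library set as a term it was 0.505 (adjusted p = 0.131), and with 1 library left out the call was kept in 6 of 15 fits (adjusted p 0.0107 to 0.185).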

How the results depend on the processing

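Counts of members called against control at 405 min (1 higher, 1 lower) moved under several settings. They were 3 higher and 2 lower with DESeq2 (14% and 19.2% of all genes) and with a GC offset (12.3% and 14.4%), 2 lower with median-of-ratios scaling, 0 higher with the library set as a term and within set 1, and 0 lower within set 2 and when only the groups compared were fitted. Over all genes 13.9% were lower with median-of-ratios scaling, 6.17% higher with the set as a term and 4.53% lower with only the groups compared. Leaving out 1 library gave 0 to 5 higher and 1 to 2 lower members. These were 5 and 2 without control replicate 2 (24.5% and 23.9% of all genes) and 3 and 2 without DD 405 min replicate 3 (14.6% and 19.9%). They were 2 and 2 without DD 45 min replicate 3 (10.8% and 14.5%). Without DD 405 min replicate 2 or 4, 0 were higher (4.88% and 4.19% of all genes higher). At 135 min 1 member, Fkbp4, was higher with the set as a term, with or without the replicate block (2.29% and 3.06% of all genes higher). Between 405 and 135 min 2 were higher, Fkbp8 and Fkbp14, when only the groups compared were fitted (16.6% of all genes higher, 12.3% lower). Leaving out 1 library gave 0 to 1 lower there (1 without DD 405 min replicate 3, with 5.85% of all genes lower). Of 1100 alternative estimates for members 93 changed sign, 0 of them called.

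At 405 min Fkbp10 turned to −0.074 with the set as a term, −0.040 with the replicate block added, −0.363 with the GC slope, −0.123 within set 1 and −0.213 within set 2. Fkbp1a turned to −0.184 with the GC slope and −0.12 within set 2. Fkbp2 turned to −0.095 within set 2, −0.299 with the GC offset and −0.261 with block and offset, and Fkbp9 to −0.162 within set 1, −0.033 and −0.051 with the GC offset without and with the block. Fkbp7 was −0.015 with median-of-ratios scaling and with DESeq2, −0.005 with no filter and −0.024 with filterByExpr, and −0.295 to 0.153 with 1 library left out. Fkbp1a at 135 min (−0.027) turned to 0.449 with the set as a term, 0.519 with the block added, 0.019 with the GC slope and 0.504 within set 1, and was −0.182 to 0.503 with 1 library left out (0.503 without control replicate 2). Fkbp4 at 135 min was −0.044 to 0.961 with 1 library left out (0.961 without control replicate 2). The cause was not tested.

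Same-numbered libraries did not deviate together (mean r −0.11 over 19 pairs, 4 over 0.1), so the numbers were not taken as pairs; with the replicate block Fkbp5 at 405 min had −0.80 (adjusted p = 0.0376) and Fkbp14 1.06 (adjusted p = 0.0266), and the calls over all genes fell from 1027 higher and 1382 lower to 333 and 467. Over all genes at 405 min the other settings gave from 121 higher and 96 lower (within set 1) to 2517 and 2463 (without control replicate 2). Control RPKM medians of Fkbp2, Fkbp3 and Fkbp9 moved to 42.7, 315 and 55.4 as CPM per exonic length, which changes both the denominator and the length. The order then turned: Fkbp1a, at 36.2, fell from place 2 to 4, below Fkbp9 and Fkbp2, and Fkbp10 (7.53) stood above Fkbp8 (6.78) and Fkbp5 (6.34).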
